A study of Mus musculus with 12 samples.

Results

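The comparison set 3 libraries labelled CpG1668+Dox, for CpG1668 and doxycycline (Dox) given together, against 3 libraries labelled PBS, by the treatment in the sample titles, 6 of the 12 libraries in the series. The cells were CMM-tetON-shStat3, a mouse acute myeloid leukaemia line marked with GFP and mCherry that carries a hairpin RNA against Stat3 under a promoter that Dox switches on, and the series' title gives the leukaemia as inv(16). All 4 groups (PBS, CpG1668, Dox and CpG1668+Dox) held these cells in immunodeficient NSG mice, which were treated from the time that leukaemia cells made up about 1% of those in blood. The labels give the schedule once as daily for 6 treatments and once as 3 treatments on alternate days. Spleens were taken 1 day after the last dose, GFP+ mCherry+ cells were sorted, and RNA was sequenced. The control animals thus carried the same hairpin construct without Dox, and no group received Dox without the hairpin, so the hairpin and Dox itself cannot be told apart. Whether replicate libraries are separate mice is not stated in the labels, and p-values therefore measure the spread between these libraries, which may be technical. NSG mice lack T, B and NK cells but keep neutrophils, monocytes and macrophages of their own.

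In inv(16) leukaemia the core binding factor subunit encoded by Cbfb is fused to a smooth muscle myosin, and blood progenitors stop maturing. CpG1668 is a DNA oligonucleotide with unmethylated CpG motifs that is sensed in endosomes by TLR9, which signals through MyD88 to NF-kappaB and interferon regulatory factors. STAT3 is a transcription factor downstream of cytokine receptors such as those for IL-6 and G-CSF, and it restrains many inflammatory genes in myeloid cells. Granulocytes mature through a promyelocyte stage, which fills primary granules with Mpo, Elane, Ctsg and Prtn3, and later stages that express secondary granule genes such as Ltf, Camp and Ngp. The series' title names TLR9, IRF8 and differentiation after STAT3 inhibition, and the comparison addresses how far myeloid maturation genes stood above the untreated cells when both agents were given.

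Each library had RPKM values (reads scaled by the length of the gene and the size of the library) for 33531 genes, with an estimated depth of 30600000 to 33700000 reads and 11945 to 12454 genes at 1 RPKM or more. Pearson r across genes was 0.992 to 0.995 within the groups and 0.970 to 0.979 between them. A principal component analysis of the 6 libraries put 75.7% of the variance on axis 1, where PBS lay from -20.1 to -17.6 and those labelled CpG1668+Dox from 15.9 to 22.8. The labelled cell type was read from its markers. The PBS libraries had Cbfb at 30.3 ± 1.84 RPKM (mean ± SD, n = 3 here and below), Gata1 at 104 ± 3.23 and the mast cell protease gene Cpa3 at 402 ± 35.6, while Mpo stood at 2.26 ± 0.141 and Ptprc, which encodes the leucocyte antigen CD45, at 0.607 ± 0.161. The marker lists were mixed within themselves. Of 18 megakaryocyte and platelet markers 10 fell below the filter (a mean of 1 RPKM over the 6 libraries), among them Pf4 at 0.0728 and Ppbp at 0.0874 RPKM in PBS, while Plek stood at 83.3. Of 14 mast cell and basophil markers 4 fell below it, among them the tryptase genes Tpsab1 at 0.0101 and Tpsb2 at 0.

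Stat3 (ENSMUSG00000004040.16, chromosome 11, 100885098 to 100939540, minus strand), the target of the hairpin, was not lower in the libraries labelled CpG1668+Dox. It had 17.9, 16.8 and 16.9 RPKM in PBS replicates 1 to 3 and 19.7, 19.4 and 19 in those labelled CpG1668+Dox. The 3 treated values lay above the 3 PBS values, as they did for 18.9% of the genes tested. The log2 change was 0.16 ± 0.038 (SE), adjusted p = 0.032 by limma. That call was lost when single libraries were left out, with adjusted p = 0.0587 to 0.114 without PBS 2, PBS 3, CpG1668+Dox 1, CpG1668+Dox 2 and CpG1668+Dox 3 in turn. The transcript thus went against the hairpin label, and every direction below is between libraries as labelled. Of 6 STAT genes tested, Stat3 and Stat6 (0.13, adjusted p = 0.0396, with adjusted p = 0.0753 to 0.139 without PBS 1, PBS 2, PBS 3, CpG1668+Dox 1, CpG1668+Dox 2 and CpG1668+Dox 3 in turn) were called higher, and 4 were not called.

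Of 12206 genes tested, 1536 (12.6%) were called by limma at an adjusted p under 0.05, 917 (7.51%) higher and 619 (5.07%) lower in the libraries labelled CpG1668+Dox. Called or not, 2310 genes (18.9%) had all 3 libraries labelled CpG1668+Dox above the 3 PBS libraries. Another 2025 (16.6%) had all 3 below, so a lack of overlap was common. Changes are differences in log2(RPKM + 1), which understate fold changes at low levels, and ratios of mean RPKM are given beside them. The rises were larger than the falls. Among the called genes, 302 (2.47% of those tested) were at least 2-fold higher as a ratio of means and 44 (0.36%) at least 2-fold lower, and the median log2 change of all genes was 0.0031. Leaving out single libraries moved these counts. The number called higher was 603 without PBS 3 and 548 without CpG1668+Dox 1. The number called lower was 361, 321 and 372 without PBS 1, 2 and 3 and 326, 333 and 412 without CpG1668+Dox 1, 2 and 3. Under quantile normalization 857 were called higher and 1045 lower. Myeloid granule, neutrophil and monocyte genes made up the largest rises and haemoglobin and haem genes the largest falls.

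**Figure D1:**
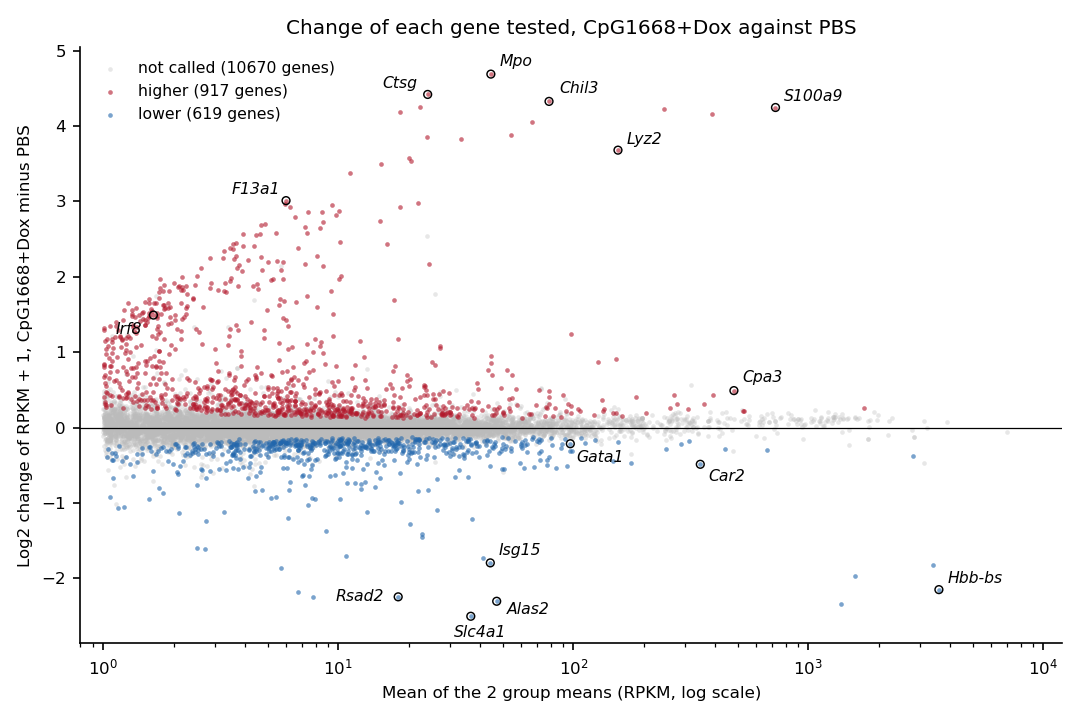
Each point is 1 of the 12206 genes tested, at the mean of its PBS and CpG1668+Dox group means (RPKM, log scale) on the horizontal axis and its log2 change of RPKM + 1 on the vertical axis, with 917 genes called higher in red, 619 called lower in blue and the rest in grey. Mpo, Ctsg, Chil3 and S100a9 lie above a log2 change of 4, and Slc4a1, Alas2, Rsad2 and Hbb-bs lie below -2.

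Primary granule genes, which encode the proteases and enzymes made by promyelocytes, held the largest rises among the lists by their median. In bulk RNA such as this, more cells of a type and more RNA per cell cannot be told apart. Of 12 tested, 10 were called higher, 1 lower and 1 was not called, and the median log2 change was 3.27. Mpo (ENSMUSG00000009350.13, chromosome 11, 87793581 to 87804413, plus strand), which encodes myeloperoxidase, had 2.14, 2.41 and 2.23 RPKM in PBS and 80.1, 58 and 123 in the libraries labelled CpG1668+Dox. Every treated library was far above every PBS library, and the spread among the treated was wide, with replicate 3 highest and replicate 2 lowest. The ratio of means was 38.4 and the log2 change 4.69 ± 0.23 (SE), adjusted p = 8.3e-05. Elane (ENSMUSG00000020125.7, chromosome 10, 79886247 to 79888215, plus strand), neutrophil elastase, had 1.09, 1.49 and 0.859 in PBS and 37.9, 24 and 67.7 after both agents, a 37.7-fold ratio (4.25 ± 0.33 (SE), adjusted p = 3.2e-04). Ctsg, which encodes cathepsin G, had 1.07, 1.06 and 1.35 and 45.5, 31.6 and 63.5, a 40.4-fold ratio (4.42 ± 0.22 (SE), adjusted p = 8.3e-05). Prtn3, the gene of proteinase 3, had 0.742, 0.99 and 1.09 and 32.3, 24 and 51.3, a 38.1-fold ratio (4.18 ± 0.24 (SE), adjusted p = 1.3e-04). For these 3 serine protease genes too, replicate 3 was highest and replicate 2 lowest of those labelled CpG1668+Dox. Ctsc, whose product activates the granule proteases, was already at 12.3 RPKM in PBS and rose to 22.4 (0.82, adjusted p = 1.2e-04). Serpinb1a, an inhibitor of the neutrophil proteases whose reads may be shared with close paralogs, fell from 80.4 to 55.3 RPKM (-0.53, adjusted p = 8.5e-04), and Srgn, the serglycin core protein of granules, was at 258 and 252 and not called.

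The promoters of Mpo and Elane are shown because the 2 genes moved together with the other granule genes, as the 250 bases before the start of each gene in RefSeq (GRCm38.p6), 5′ to 3′ on the gene's strand. Capitals mark a match to GGAAGT, the letters searched for PU.1, a myeloid factor encoded by Spi1. It lies 222 to 217 bases before the RefSeq start of Mpo and 83 to 78 bases before that of Elane. Mpo is at chr11:87793534-87793783, plus strand, and Elane at chr10:79886062-79886311, plus strand. The gene positions given above are from GENCODE M21, whose starts differ, and part of each printed stretch lies within those positions.
Mpo: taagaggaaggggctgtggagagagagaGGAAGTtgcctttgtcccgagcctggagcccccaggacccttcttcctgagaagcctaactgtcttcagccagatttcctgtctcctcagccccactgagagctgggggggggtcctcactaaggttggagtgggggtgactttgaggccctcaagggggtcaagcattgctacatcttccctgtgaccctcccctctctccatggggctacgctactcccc
Elane: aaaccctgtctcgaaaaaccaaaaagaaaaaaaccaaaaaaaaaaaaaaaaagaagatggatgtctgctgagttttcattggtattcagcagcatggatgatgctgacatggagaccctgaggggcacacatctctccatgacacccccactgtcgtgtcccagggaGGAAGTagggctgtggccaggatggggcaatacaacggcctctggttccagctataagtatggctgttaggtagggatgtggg

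Late neutrophil genes rose throughout, and all 19 tested of 21 listed were called higher, with a median log2 change of 2.95. S100a9 (ENSMUSG00000056071.12, chromosome 3, 90692632 to 90695721, minus strand), a calcium-binding alarmin abundant in neutrophils, had 46.6, 94.3 and 66.3 RPKM in PBS and 1340.2, 757 and 2043 in the libraries labelled CpG1668+Dox. The groups did not overlap, and the treated libraries differed among themselves by more than the PBS libraries. The ratio of means was 20.0 (4.24 ± 0.38 (SE), adjusted p = 5.1e-04). Its partner S100a8 had 25.1, 54.2 and 38.4 and 730.0, 406 and 1087, an 18.9-fold ratio. Ngp, a secondary granule protein gene, went from 16, 32.8 and 20.5 to 456, 258 and 680.4 RPKM (4.22 ± 0.37 (SE), adjusted p = 4.8e-04). Chil3, a chitinase-like protein gene of neutrophils and macrophages, went from 3.75, 9.0 and 6.41 to 141, 87.3 and 226, a 23.7-fold ratio (4.33 ± 0.37 (SE), adjusted p = 4.5e-04). The secondary granule genes Camp (cathelicidin), Ltf (lactoferrin) and Lcn2 (lipocalin 2) rose 19.6-fold, 17.4-fold and 19.2-fold. Mmp8, a collagenase of the later granules, had 0.568, 0.694 and 0.603 and 9.32, 6.82 and 9.84, and its treated libraries lay closer together. In each of S100a9, S100a8, Ngp, Chil3, Camp, Ltf and Lcn2 the order of the treated libraries was replicate 3, then 1, then 2.

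Summed over the 21 late neutrophil genes, the libraries had 112, 227 and 157 RPKM in PBS and 3128, 1779 and 4646 in those labelled CpG1668+Dox. A fit added after the data were seen, over the 12 libraries with the mean of the 19 tested late neutrophil genes as a covariate, called 6 genes higher by limma (Ccl9, Emb, F13a1, Fn1, Klf4 and Tgfbi) and 0 lower, with 821 higher and 481 lower at an unadjusted p under 0.05. The covariate itself did not overlap between the groups, at 1.70 to 2.21 in PBS and 4.49 to 5.48 in those labelled CpG1668+Dox. The part of other cells in the rises was not tested.

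**Figure D2:**
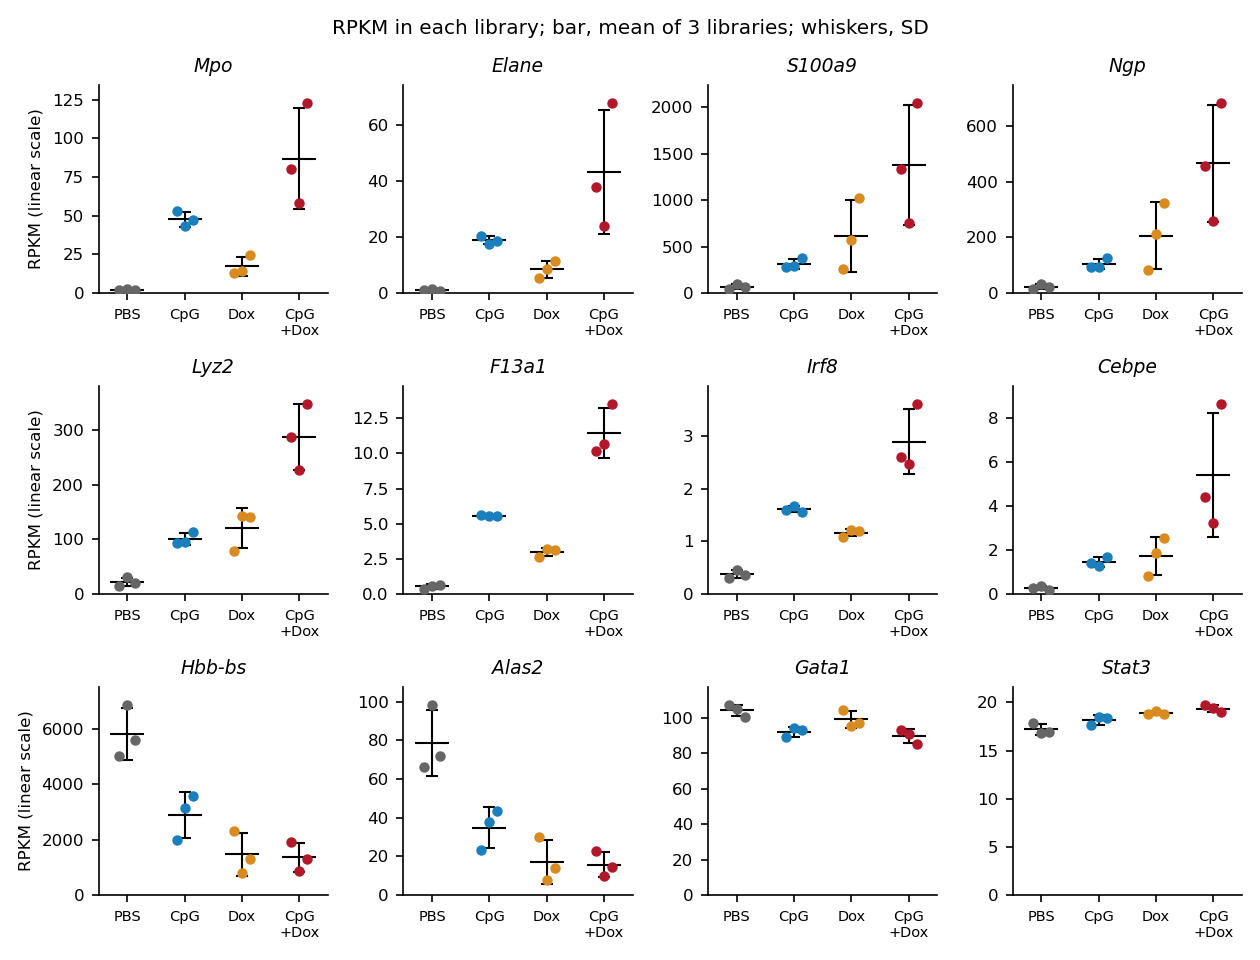
RPKM on a linear axis from 0 for 12 genes in all 12 libraries of the 4 groups, with 1 point per library, a bar at the mean of 3 libraries and whiskers of 1 SD. Mpo and Elane rank PBS, Dox, CpG1668 and CpG1668+Dox by their means, S100a9 and Ngp rank CpG1668 below Dox, Hbb-bs and Alas2 fall in the treated groups, and Stat3 stays between 16.8 and 19.7 RPKM.

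Monocyte and macrophage markers also rose, and all 29 tested of 33 listed were called higher, with a median log2 change of 1.86. A gene could pass the filter through the treated group alone, so these counts cover genes detected there, and the same limit holds for the other lists. F13a1, a monocyte gene for a subunit of coagulation factor XIII, had 0.377, 0.574 and 0.671 RPKM in PBS and 10.2, 10.7 and 13.5 in the libraries labelled CpG1668+Dox. Its treated values were tight and all above PBS, a 21.2-fold ratio (3.01 ± 0.11 (SE), adjusted p = 4.5e-05). Lyz2, the lysozyme gene of neutrophils and macrophages, went from 15.5, 30.4 and 20.2 to 288, 227 and 348, a 13.1-fold ratio (3.68 ± 0.24 (SE), adjusted p = 1.9e-04). Emb, an adhesion glycoprotein, rose from 0.745 to 6.8 RPKM (2.16, adjusted p = 5.5e-05), and Pld4, an endolysosomal nuclease, from 1.17 to 8.9 RPKM (2.19, adjusted p = 5.5e-05). Tgfbi, an extracellular matrix protein named after its values were seen, had 1.29, 2.12 and 1.65 and 16.9, 17.3 and 19.5. Summed over 33 markers, monocyte genes stood at 139.8, 182 and 156 RPKM in PBS and 707, 613 and 832 in those labelled CpG1668+Dox, again highest in replicate 3.

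Genes for killing and engulfing microbes rose as well. Of 6 subunits of the phagocyte oxidase, 5 were called higher with a median of 1.52. Cybb, its catalytic subunit, had 1.1, 2.26 and 1.56 in PBS and 18.5, 13.5 and 23.5 RPKM after both agents, without overlap (2.88 ± 0.21 (SE), adjusted p = 3.0e-04). The cytosolic subunits Ncf1 and Ncf4 rose 12.7-fold and 9.98-fold. Among 6 Fc receptor genes, 5 were called higher. Fcgr4 went from 1.42 to 10.2 RPKM (2.19, adjusted p = 5.2e-04), Fcgr1 from 0.271 to 2.65 RPKM (1.52, adjusted p = 2.2e-04), and the shared signalling chain Fcer1g from 17.3 to 37 RPKM (1.05, adjusted p = 8.8e-04). The inhibitory receptor gene Fcgr2b rose from 2.83 to 4.16 RPKM (0.43, adjusted p = 9.8e-04).

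Myeloid transcription factor genes had 10 of 13 tested members called higher and 0 lower, with a median of 0.98. Irf8 (ENSMUSG00000041515.10, chromosome 8, 120736358 to 120756694, plus strand), which directs monocyte and dendritic cell development, had 0.308, 0.464 and 0.355 RPKM in PBS and 2.61, 2.48 and 3.6 in the libraries labelled CpG1668+Dox. No treated library came near the PBS range, and the ratio of means was 7.7 (1.49 ± 0.12 (SE), adjusted p = 3.5e-04). Klf4, a monocyte factor, had 0.379, 0.429 and 0.37 and 4.27, 4.67 and 4.97, an 11.8-fold ratio (2.02 ± 0.067 (SE), adjusted p = 4.4e-05). Cebpa, needed for granulocyte and monocyte progenitors, had 0.255, 0.485 and 0.247 and 2.74, 2.64 and 3.28 (1.55 ± 0.10 (SE), adjusted p = 1.9e-04). Cebpb, which drives emergency granulopoiesis, had 2.14, 2.53 and 2.1 and 9.26, 8.57 and 10.6 (1.68 ± 0.083 (SE), adjusted p = 8.3e-05). Cebpe, a factor of secondary granule genes that was named after its values were seen, had 0.271, 0.352 and 0.183 and 4.39, 3.23 and 8.61 (2.25 ± 0.27 (SE), adjusted p = 0.00192), and replicate 3 was again highest. Spi1, the PU.1 gene, was already at 18.2 in PBS and rose to 24 (0.38, adjusted p = 0.00761). Egr1, Id2 and Bhlhe40 were not called.

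The promoter of Irf8, 250 bases at chr8:120736108-120736357, plus strand, of RefSeq GRCm38.p6, is printed because the series' title links STAT3 to Irf8. It is the first of 2 promoters listed for Irf8. Capitals mark 2 matches to TTCNNNGAA, the letters searched for STAT factors, at 171 to 163 and 153 to 145 bases before the start. A match is a description of the letters and not evidence of binding.
Irf8: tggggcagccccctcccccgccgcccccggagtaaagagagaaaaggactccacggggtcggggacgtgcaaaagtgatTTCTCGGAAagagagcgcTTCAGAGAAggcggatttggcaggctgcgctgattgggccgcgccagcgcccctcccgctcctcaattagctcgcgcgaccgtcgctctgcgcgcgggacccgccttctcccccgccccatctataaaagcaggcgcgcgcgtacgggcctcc

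Genes of the TLR9 pathway changed in part. Tlr9 itself was below the level needed for testing, with 0.0616, 0.17 and 0.0654 RPKM in PBS and 0.468, 0.356 and 0.511 in those labelled CpG1668+Dox. For scale, 3 reads in a gene of 1 kb would give 0.0889 to 0.098 RPKM in the 6 libraries. Fitted without the filter, the log2 change of Tlr9 was 0.39 ± 0.060 (SE), adjusted p = 0.0326. Of 19 tested pathway genes, 8 were called higher and 1 lower, and the median was 0.17. Unc93b1, the chaperone that carries TLR9 to endosomes, had 2.41, 2.71 and 2.76 and 8.71, 7.5 and 10.9, without overlap (1.46 ± 0.12 (SE), adjusted p = 3.6e-04). Ctss, an endosomal protease, rose from 4.42 to 27.9 RPKM (2.43, adjusted p = 2.3e-04). Irf5, a factor that MyD88 signalling activates, rose from 7.61 to 11.6 RPKM (0.55, adjusted p = 2.0e-04), and Slc15a4, a lysosomal transporter needed for TLR9 responses, from 1.91 to 3.16 RPKM (0.52, adjusted p = 8.1e-04). The adaptor Myd88 changed little, from 28.1 to 31.7 RPKM (0.17, adjusted p = 0.0403). Lgmn, a protease that cleaves TLR9, fell from 18.8 to 15.8 RPKM (-0.24, adjusted p = 0.0222). Among 5 other Toll-like receptor genes and their partners, 4 were called higher, namely Tlr13 (from 0.393 to 2.98 RPKM), Cd14 (from 1.86 to 6.63 RPKM), Ly86 (from 0.305 to 2.36 RPKM) and Tlr2 (from 1.59 to 3.03 RPKM).

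NF-kappaB targets and subunits had 9 of 20 called higher, 0 lower and a median of 0.21. Il1b had 0.513, 0.867 and 0.921 RPKM in PBS and 3.4, 3.73 and 2.9 in those labelled CpG1668+Dox (1.30 ± 0.11 (SE), adjusted p = 4.8e-04). The subunit gene Rel rose from 0.779 to 1.57 RPKM (0.53, adjusted p = 0.0055), while Rela (18.5 and 19.2), Nfkb1 (22.4 and 23.8) and Relb (2.02 and 1.73) were not called. Icam1, an adhesion molecule, rose from 6.62 to 7.81 RPKM (0.21, adjusted p = 0.011). Nfkbid, a nuclear regulator of the pathway, rose from 2.21 to 3.59 RPKM (0.51, adjusted p = 0.0138, with adjusted p = 0.0512 without PBS 3).

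Interferon-stimulated genes moved both ways. Of 26 tested, 4 were called higher (Ifi27l2a, Trim30a, Gbp3 and Gbp2) and 5 lower (Rsad2, Isg15, Irgm2, Igtp and Eif2ak2), with a median of 0.058. Rsad2 (ENSMUSG00000020641.16, chromosome 12, 26442746 to 26456452, minus strand), the antiviral enzyme viperin, had 24, 39.1 and 27.9 RPKM in PBS and 6.85, 3.83 and 6.17 in the libraries labelled CpG1668+Dox. All 3 treated libraries were below all 3 PBS libraries, a 5.4-fold fall (-2.25 ± 0.22 (SE), adjusted p = 8.2e-04). Isg15 (ENSMUSG00000035692.6, chromosome 4, 156199424 to 156200818, minus strand), a ubiquitin-like protein gene, had 58.5, 86.3 and 62.8 and 25.5, 14.4 and 18.5, a 3.56-fold fall (-1.80 ± 0.21 (SE), adjusted p = 0.00185). PBS replicate 2 was the highest library for both genes, as it was for Hbb-bs and Alas2. In the other direction, Ifi27l2a rose from 1.53 to 8.81 RPKM (1.95, adjusted p = 1.2e-04) and Trim30a from 0.613 to 3.41 RPKM (1.43, adjusted p = 8.4e-04). All 4 tested members of the Ifitm family, antiviral membrane proteins whose close copies may share reads, were called higher. Ifitm3 had 2.58, 6.27 and 4.13 and 37.3, 36.7 and 43.6 (2.97 ± 0.23 (SE), adjusted p = 3.2e-04), and Ifitm6 1.08, 1.72 and 1.22 and 18.3, 12.2 and 21.8 (2.95 ± 0.20 (SE), adjusted p = 2.0e-04). Stat2 and Bst2, other interferon targets, were at 4.96 and 29.3 RPKM in PBS and 6.04 and 32.6 after both agents and were not called, although Stat2 was with all 12 libraries in the fit (0.24, adjusted p = 0.0199). Of 7 interferon regulatory factor genes, Irf8, Irf5 and Irf1 (from 2.78 to 4.36 RPKM, 0.51, adjusted p = 9.8e-04) were called higher and 4 were not called.

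The promoter of Isg15, 250 bases at chr4:156200819-156201068, minus strand, of RefSeq GRCm38.p6, is shown as that of an interferon-stimulated gene that fell. Capitals cover 3 overlapping matches to GAAA, any 2 bases and GAAA, the letters searched for the interferon response element, from 78 to 57 bases before the start.
Isg15: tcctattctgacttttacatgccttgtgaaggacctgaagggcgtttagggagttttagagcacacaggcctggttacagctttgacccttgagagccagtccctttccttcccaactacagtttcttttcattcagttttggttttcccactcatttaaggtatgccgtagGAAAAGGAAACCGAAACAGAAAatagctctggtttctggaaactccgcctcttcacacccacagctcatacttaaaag

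STAT3 targets and feedback genes had 9 of 27 called higher and 3 lower (Tgfb1, Ccnd2 and Bcl2l1), with a median of 0.12. Socs3, a feedback inhibitor that STAT3 induces, had 0.455, 0.734 and 0.551 RPKM in PBS and 2.6, 3.01 and 2.33 in those labelled CpG1668+Dox, without overlap (1.21 ± 0.099 (SE), adjusted p = 3.8e-04). Il6ra, the IL-6 receptor gene, rose from 0.271 to 2.69 RPKM (1.53, adjusted p = 1.3e-04), and its signalling partner Il6st from 0.943 to 2.41 RPKM (0.81, adjusted p = 0.00144). Vegfa rose from 6.32 to 8.73 RPKM (0.41, adjusted p = 0.00226). Bcl2l1, which encodes the survival protein BCL-XL and is also active in erythroid cells, fell from 16.9, 18.8 and 16.8 to 11.5, 11.3 and 11.1 (-0.59 ± 0.050 (SE), adjusted p = 4.4e-04). Mcl1, a related survival gene, was at 57.4 and 62.9 and not called, although it was with all 12 libraries in the fit (0.13, adjusted p = 0.0292). Fos was spread over the treated libraries, at 17.2, 23.8 and 4.53 against 1.98, 1.94 and 2.31 in PBS (2.14, adjusted p = 0.0318), and its call was lost with adjusted p = 0.0641 to 0.0982 without PBS 1, PBS 2, PBS 3, CpG1668+Dox 1 and CpG1668+Dox 2 in turn.

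Growth factor and cytokine receptor genes had 11 of 20 called higher and 3 lower (Epor, Csf2rb and Csf2rb2). Csf3r and Csf1r, the receptors for G-CSF and M-CSF, both named after their values were seen, had 0.63, 0.874 and 0.658 and 1.2, 2.19 and 1.33 RPKM in PBS, in that order. In the libraries labelled CpG1668+Dox Csf3r had 6.22, 4.65 and 9.17 (2.12 ± 0.19 (SE), adjusted p = 5.9e-04) and Csf1r 9.13, 7.54 and 10.3 (1.97 ± 0.16 (SE), adjusted p = 3.6e-04). Ifngr1, a chain of the interferon gamma receptor, rose from 1.98 to 12.5 RPKM (2.17, adjusted p = 1.3e-04), and Csf2ra from 5.01 to 11.7 RPKM (1.08, adjusted p = 2.1e-04). Csf2rb, the chain shared by the receptors for IL-3, IL-5 and GM-CSF, fell from 174, 166 and 169.6 to 125, 125 and 122 (-0.45 ± 0.035 (SE), adjusted p = 3.5e-04). Epor, the erythropoietin receptor, fell from 21.9 to 17.9 RPKM (-0.28, adjusted p = 0.0174).

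Of 20 chemokines and their receptors 12 fell below the filter, and 7 of the 8 tested were called higher, with a median of 1.81. Ccl9 and Ccl6, at means of 0.404 and 0.821 RPKM in PBS, passed the filter through the treated group. Ccl9 had 0.322, 0.399 and 0.491 and 6.41, 5.52 and 6.47 RPKM, a 15.2-fold ratio (2.34 ± 0.078 (SE), adjusted p = 4.4e-05). Cxcr4, which holds cells in the marrow, had 2.06, 2.28 and 1.96 and 12.2, 12.4 and 18 (2.27 ± 0.14 (SE), adjusted p = 1.3e-04). Ccr2, the receptor that brings monocytes into tissue, rose from 2.21 to 8.93 RPKM (1.63, adjusted p = 2.9e-04), and Ccl6 from 0.821 to 7.45 RPKM (2.22, adjusted p = 5.5e-05). Of 19 pan-leucocyte and integrin genes, 14 were called higher and 0 lower. Ptprc had 0.429, 0.742 and 0.65 in PBS and 3.95, 3.25 and 4.6 in those labelled CpG1668+Dox (1.61 ± 0.12 (SE), adjusted p = 2.9e-04). Itgam, the CD11b integrin of myeloid cells, had 0.609, 1.14 and 0.874 and 12.3, 9.1 and 15.1 (2.80 ± 0.17 (SE), adjusted p = 1.6e-04), and its partner Itgb2 6.83, 8.46 and 7.5 and 27.3, 22.2 and 31.4 (1.69 ± 0.12 (SE), adjusted p = 2.7e-04).

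Antigen presentation genes changed in part. The MHC class II list had 4 of 9 members called higher, which were Ctss, Ifi30, H2-DMb1 and H2-DMa. These encode an invariant chain protease, a thiol reductase and both chains of the peptide loading factor. H2-DMb1 had 0.622, 0.759 and 0.692 RPKM in PBS and 2.22, 1.72 and 1.88 in those labelled CpG1668+Dox (0.79, adjusted p = 0.00118), and Ifi30 rose from 17 to 37.3 RPKM (1.09, adjusted p = 3.6e-04). The classical class II genes H2-Aa (2.59 and 3.01), H2-Ab1 (2.35 and 2.69) and H2-Eb1 (3.39 and 3.77) were not called. Of 18 class I and loading genes, 5 were called higher, among them B2m (from 229 to 308 RPKM, 0.43, adjusted p = 0.00351) and H2-D1 (from 84.4 to 105 RPKM, 0.32, adjusted p = 0.00148). Among 10 costimulation and checkpoint genes, Sirpa, Vsir and Tnfsf14 were called higher and Pdcd1lg2 and Cd276 lower. Sirpa, the receptor for the signal of CD47, rose from 4.46 to 14.5 RPKM (1.5, adjusted p = 8.8e-04), and Vsir, which encodes the checkpoint VISTA, from 5.44 to 11.8 RPKM (0.98, adjusted p = 6.6e-04). Lysosome genes had 14 of 24 called higher and 0 lower, with a median of 0.24, led by Ctsh (from 0.593 to 4.22 RPKM), Cst3 (from 32.1 to 55.1 RPKM) and Grn (from 16 to 23.9 RPKM). Of 16 S100 and annexin genes, 9 were called higher and 1 (Anxa5) lower. Anxa1, a regulator of inflammation, had 1.45, 2.76 and 2.23 and 37.6, 23.8 and 51.7 (3.57 ± 0.27 (SE), adjusted p = 3.1e-04), S100a4 rose from 2.47 to 17.9 RPKM and S100a6 from 2.83 to 11.9 RPKM.

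**Figure D3:**
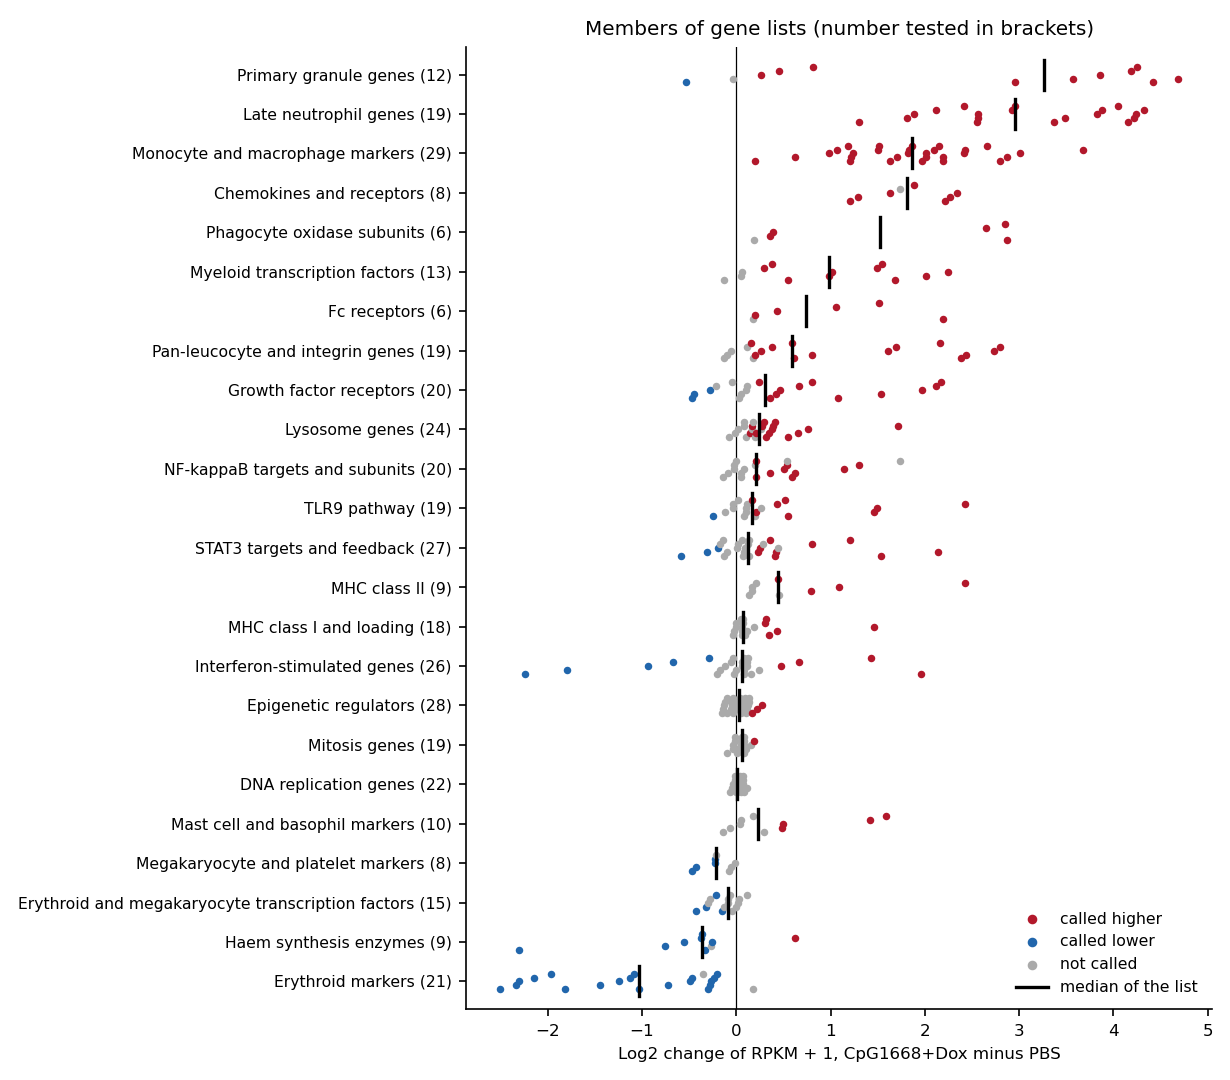
Log2 change of RPKM + 1 between the libraries labelled CpG1668+Dox and PBS (horizontal axis) for the tested members of 24 gene lists, 1 row per list with the number tested in brackets, 1 point per gene and a vertical bar at the median. Members called higher are red, lower blue and not called grey, and the medians run from 3.27 for primary granule genes to -1.03 for erythroid markers, with DNA replication and mitosis genes near 0.

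Erythroid markers fell together. Of 21 tested, 19 were called lower, 0 higher and 2 were not called, with a median of -1.03. Hbb-bs (ENSMUSG00000052305.6, chromosome 7, 103826534 to 103828096, minus strand), an adult beta globin gene, had 5010.2, 6847 and 5599.8 RPKM in PBS and 1916, 874 and 1309.7 in the libraries labelled CpG1668+Dox. The groups did not overlap, a 4.26-fold fall (-2.15 ± 0.27 (SE), adjusted p = 0.00225). Its neighbour Hbb-bt fell 4.84-fold, and the alpha globin genes Hba-a1 and Hba-a2 fell 3.84-fold and 3.47-fold. These globin pairs are near-identical copies between which reads can be split. Slc4a1 (ENSMUSG00000006574.15, chromosome 11, 102348824 to 102366203, minus strand), the band 3 anion exchanger of red cells, had 50.2, 87.7 and 50.7 and 14.9, 7.0 and 9.15, a 6.08-fold fall (-2.50 ± 0.29 (SE), adjusted p = 0.00171). Trim10 and Tmcc2, which are expressed in late erythroid cells, fell 2.91-fold and 2.84-fold. Car2, a carbonic anhydrase gene of erythroid progenitors, fell less, from 415, 413 and 388 to 287, 293 and 286 (-0.49 ± 0.041 (SE), adjusted p = 4.1e-04). Summed over 21 markers, erythroid genes stood at 15388, 20362 and 16862 RPKM in PBS and 6612, 3963 and 4945 in those labelled CpG1668+Dox. PBS replicate 2 was the highest library and CpG1668+Dox replicate 2 the lowest.

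Haem synthesis enzymes had 7 of 9 called lower and 1 higher. Alas2 (ENSMUSG00000025270.13, chromosome X, 150547375 to 150570638, plus strand), the erythroid form of the first enzyme, had 66, 98 and 72.1 RPKM in PBS and 23, 9.96 and 14.3 after both agents, a 5.0-fold fall (-2.30 ± 0.28 (SE), adjusted p = 0.00192). Alas1, the form found in other tissues, rose from 2.06 to 3.77 RPKM (0.62, adjusted p = 0.0166). The last enzyme, Fech, fell from 15.9 to 9.01 RPKM (-0.76, adjusted p = 4.1e-04), and Urod fell 1.27-fold. Other large falls were those of Ypel4 (from 13.6 to 2.03 RPKM), Apol11b (from 11.8 to 1.73 RPKM) and the tubulin gene Tubb3 (from 17 to 4.46 RPKM), each with non-overlapping libraries.

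The promoter of Alas2, 250 bases at chrX:150547167-150547416, plus strand, of RefSeq GRCm38.p6, is shown for the genes that fell. Capitals mark the reverse complement of AGATAA, the letters searched for GATA factors, 86 to 81 bases before the RefSeq start. Part of the printed stretch lies within the GENCODE position of Alas2 given above.
Alas2: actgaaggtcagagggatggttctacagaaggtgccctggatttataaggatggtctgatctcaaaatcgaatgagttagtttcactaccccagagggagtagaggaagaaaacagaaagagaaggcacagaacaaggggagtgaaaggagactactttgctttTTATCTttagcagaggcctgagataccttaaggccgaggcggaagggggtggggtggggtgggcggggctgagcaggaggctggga

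Factors that set erythroid and megakaryocyte fate had a smaller median change than the erythroid markers, a difference that was not tested. Of 15 tested, 4 were called lower (Tal1, Gata1, Gfi1b and Lmo2) and 0 higher, with a median of -0.093. Gata1 had 107, 105 and 101 RPKM in PBS and 93.1, 90.8 and 85.6 in those labelled CpG1668+Dox (-0.21 ± 0.044 (SE), adjusted p = 0.0214). Its libraries did not overlap, but the call was lost with adjusted p = 0.0551 to 0.0741 without PBS 1, PBS 2, CpG1668+Dox 2 and CpG1668+Dox 3 in turn. Lmo2 fell from 89.3, 91.2 and 85.3 to 66.8, 65.7 and 63.8 (-0.43 ± 0.039 (SE), adjusted p = 5.5e-04) and Gfi1b from 70.9 to 56.5 RPKM (-0.32, adjusted p = 0.00441). Tal1 fell from 70.3 to 63.1 RPKM (-0.15, adjusted p = 0.0346), with adjusted p = 0.0726 to 0.125 without PBS 2, PBS 3, CpG1668+Dox 1, CpG1668+Dox 2 and CpG1668+Dox 3 in turn. Klf1, Gata2 and Runx1 were at 49, 23.1 and 29.7 RPKM in PBS and 47.4, 21 and 27.9 after both agents and were not called. Megakaryocyte and platelet markers had 4 of 8 called lower (Plek, Tubb1, Gp5 and Gp1ba), with Plek from 83.3 to 61.4 RPKM (-0.43, adjusted p = 0.00226). Tubb1 fell from 4.04 to 2.63 RPKM (-0.47, adjusted p = 0.0184), with adjusted p = 0.0528 to 0.0636 without PBS 1, PBS 3, CpG1668+Dox 1 and CpG1668+Dox 3 in turn, and Gp1ba from 20.3 to 17.2 RPKM (-0.23, adjusted p = 0.0406), with adjusted p = 0.0764 to 0.114 without PBS 1, PBS 2, PBS 3, CpG1668+Dox 2 and CpG1668+Dox 3 in turn.

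Mast cell and basophil markers had 4 of 10 tested members called higher and 0 lower, and their levels ranged widely. Cpa3, the mast cell carboxypeptidase, had 361, 421 and 423 RPKM in PBS and 572, 559 and 558 in those labelled CpG1668+Dox (0.49 ± 0.066 (SE), adjusted p = 0.00352). The basophil proteases Mcpt8 and Prss34 rose from 0.326 to 2.53 RPKM (1.41, adjusted p = 3.0e-04) and from 0.425 to 3.25 RPKM (1.58, adjusted p = 3.1e-04). Gzmb rose from 9.57 to 13.8 RPKM (0.49, adjusted p = 0.0178), with adjusted p = 0.0595 to 0.0605 without PBS 3 and CpG1668+Dox 1 in turn. Fcer1a, the IgE receptor chain, was at 629.6 and 709 and not called. Of 13 stem, progenitor and leukaemia genes, Cd93 and Spi1 were called higher and Tal1, Erg, Hlf and Lmo2 lower. The 8 members below the filter had higher means in those labelled CpG1668+Dox, most from under 0.1 RPKM in PBS. They included Cd34 (0.0404 and 0.395 RPKM in PBS and CpG1668+Dox) and Flt3 (0.109 and 0.315). Cd93 rose from 0.39 to 2.68 RPKM (1.40, adjusted p = 1.5e-04), Hlf fell from 5.18 to 4.04 RPKM (-0.29, adjusted p = 0.0126, with adjusted p = 0.0522 without CpG1668+Dox 1), and Kit, Myb, Myc and Cbfb were not called. Cbfb had 28.9, 29.5 and 32.3 in PBS and 30.9, 31.2 and 33.1 in those labelled CpG1668+Dox, with overlapping libraries (0.068, adjusted p = 0.429).

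Few cell cycle genes were called. None of 22 DNA replication genes was called by limma, 0 had an unadjusted p under 0.05, and their median was 0.010. Of 19 mitosis genes, Top2a was called higher (from 43.9 to 50.2 RPKM, 0.19, adjusted p = 0.0245, with adjusted p = 0.0664 to 0.0874 without PBS 1, PBS 2, CpG1668+Dox 2 and CpG1668+Dox 3 in turn) and the rest were not called. Among 28 epigenetic regulators, 3 were called higher (Kmt2d, Kmt2a and Eed) and 0 lower, with a median of 0.031. Kmt2d, Kmt2a and Eed each changed by less than 0.30 on the log2 scale and lost their calls without single libraries. For Kmt2d the value was adjusted p = 0.0533 to 0.108 without PBS 1, PBS 2, PBS 3, CpG1668+Dox 2 and CpG1668+Dox 3 in turn. For Kmt2a it was adjusted p = 0.0702 to 0.121 without PBS 1, PBS 2, PBS 3, CpG1668+Dox 1, CpG1668+Dox 2 and CpG1668+Dox 3 in turn, and for Eed adjusted p = 0.0594 to 0.112 without PBS 1, PBS 2, PBS 3, CpG1668+Dox 1, CpG1668+Dox 2 and CpG1668+Dox 3 in turn. Over all genes tested, 12.6% were called, 7.51% higher and 5.07% lower, and no list was tested against these shares. Of 14 p53 targets, Sesn2 and Pmaip1 were called higher and Gadd45a lower (from 13.3 to 4.44 RPKM, -1.37, adjusted p = 0.0065), but Pmaip1 and Gadd45a were not called without the filter (adjusted p = 0.0551 and 0.0509). Hypoxia and glycolysis genes had 4 of 18 higher (Pgk1, Pkm, Pgam1 and Vegfa) and 1 lower (Slc2a3), sterol and fatty acid synthesis genes 0 higher and 1 of 22 lower (Scd1, -0.43, adjusted p = 0.0438, with adjusted p = 0.0548 to 0.126 without PBS 1, PBS 2, PBS 3, CpG1668+Dox 2 and CpG1668+Dox 3 in turn), and proteasome genes 1 of 19 higher (Psmb8, 0.30, adjusted p = 0.0119, with adjusted p = 0.0509 without CpG1668+Dox 1). In the BCL2 family of 13, Pmaip1 was called higher and Bcl2l1 lower. One of 13 mitochondrially encoded genes, mt-Nd1, was called lower (from 3134 to 2416 RPKM, -0.37, adjusted p = 0.00939), and not under quantile normalization (adjusted p = 0.312).

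Genes that respond to handling of the cells varied between libraries. Of 14 immediate-early genes, Fos, Zfp36, Klf2 and Nr4a1 were called higher, Nr4a1 with adjusted p = 0.0503 without PBS 3 and 0.0692 without the filter. Zfp36 had 2.99, 3.63 and 3.12 RPKM in PBS and 13.7, 18.8 and 6.26 in those labelled CpG1668+Dox (1.6, adjusted p = 0.0202, with adjusted p = 0.0535 to 0.0697 without PBS 1, PBS 2, PBS 3 and CpG1668+Dox 1 in turn). The heat shock gene Hspa1b, which shares reads with Hspa1a, had 1.39, 5.43 and 4.93 and 14.6, 107 and 9.5 and was not called (2.54, adjusted p = 0.0995). Hspa1a was called higher without CpG1668+Dox replicate 2 (1.15, adjusted p = 0.0187). Replicate 2 of those labelled CpG1668+Dox was the highest for Fos, Zfp36, Hspa1a and Hspa1b and the lowest for the neutrophil genes named above. Of 12 heat shock genes 1 was called, Dnajb1 (0.53, adjusted p = 0.0279, with adjusted p = 0.0726 to 0.0877 without PBS 1, PBS 2, PBS 3 and CpG1668+Dox 3 in turn). Integrated stress response genes had 3 of 14 called higher, Atf4 (from 95.6 to 114 RPKM, with adjusted p = 0.101 when all 12 libraries were fitted), Ddit4 (from 15.5 to 24.8 RPKM) and Sesn2 (from 11.9 to 15.3 RPKM), the last with adjusted p = 0.0709 to 0.115 without PBS 1, PBS 2, PBS 3 and CpG1668+Dox 2 in turn. Summed over 17 immediate-early genes, PBS had 146, 166 and 149 RPKM and those labelled CpG1668+Dox 263, 352 and 159. The part of handling in other results was not tested.

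Markers of other cells that a spleen sort could hold ranged widely in level. Of 16 B and plasma cell markers, 2 passed the filter. Ighm was called higher, with 0.438, 0.496 and 0.448 RPKM in PBS and 5.62, 5.66 and 8.63 in those labelled CpG1668+Dox (2.36 ± 0.14 (SE), adjusted p = 1.3e-04), while Ms4a1 was at most 0.00954 and Pax5 at most 0.00669 RPKM in any of the 6 libraries. B cell markers below the filter went both ways. Cd79b (0.16 and 0.809 RPKM in PBS and CpG1668+Dox) had a higher mean and Igll1 (0.01 and 0) a lower one. Of 16 T and NK cell markers 1 passed, Nkg7, which had 14.5, 16.4 and 11.4 RPKM in PBS and 15.2, 12.3 and 22.3 in those labelled CpG1668+Dox and was not called, and Cd3e was at most 0.0158. T cell markers below the filter also went both ways. Cd3d (0.0399 and 0.466 RPKM in PBS and CpG1668+Dox) had a higher mean, and Lck (0.538 and 0.436) and Thy1 (0.843 and 0.752) lower ones. Of 14 splenic macrophage markers 7 passed the filter. By limma 0 of these 7 were called and 4 had an unadjusted p under 0.05, with a median log2 change of 0.75 and all 7 changes above 0. Those below the filter went both ways. Axl (1.11 and 0.804 RPKM in PBS and CpG1668+Dox), Slco2b1 (0.5 and 0.307), Timd4 (0.188 and 0.0429) and Cd163 (0.186 and 0.104) had lower means. Spic (0.52 and 1.33), Mertk (0.212 and 0.612) and Marco (0.568 and 0.584) had higher ones. Without PBS replicate 2, C1qa (1.05, adjusted p = 0.0395) and C1qb (1.07, adjusted p = 0.0402) were called higher. The sum over 14 splenic macrophage markers was 20.8, 32.1 and 18.7 RPKM in PBS and 30.7, 28.6 and 47.7 in those labelled CpG1668+Dox, which overlapped. C1qa, C1qb and C1qc, complement genes of resident macrophages, were highest in CpG1668+Dox replicate 3, at 7.02, 7.01 and 4.9 RPKM. Of 8 eosinophil markers 3 were tested, among which Ear2 was called higher (from 1.3 to 7.72 RPKM), and Siglecf was at 21.4 and 21 RPKM and not called. Of 14 dendritic cell markers 12 fell below the filter, and of the 2 tested Sirpa was called higher. Dendritic cell markers below the filter went both ways. Zbtb46 (0.924 and 0.264 RPKM in PBS and CpG1668+Dox) and Cd209a (0.265 and 0) had lower means, and Itgax (0.478 and 1.13) and Runx2 (0.249 and 0.581) higher ones. Of 11 stromal and endothelial markers 9 fell below the filter, and of the 2 tested Pecam1 was called higher (from 0.362 to 1.83 RPKM). The Y-linked gene Eif2s3y had 0.574, 1.2 and 0.68 in PBS and 1.7, 1.6 and 1.99 in those labelled CpG1668+Dox (0.62, adjusted p = 0.0258, with adjusted p = 0.0727 to 0.0858 without PBS 1, PBS 3, CpG1668+Dox 1 and CpG1668+Dox 3 in turn), and Xist had 55.5, 52.5 and 66.1 and 43.8, 48.3 and 52.4 and was not called (-0.26, adjusted p = 0.127). The other Y-linked genes listed fell below the filter. They were higher in those labelled CpG1668+Dox without overlap between libraries, as were 18.9% of the genes tested. Their means in PBS and CpG1668+Dox were 0.617 and 1.23 RPKM for Ddx3y, 0.0908 and 0.2 for Kdm5d and 0.107 and 0.211 for Uty. In PBS, Kdm5d and Uty lay near the level of 3 reads per kb. The part that cells other than the leukaemia had in the results was not tested.

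**Figure D4:**
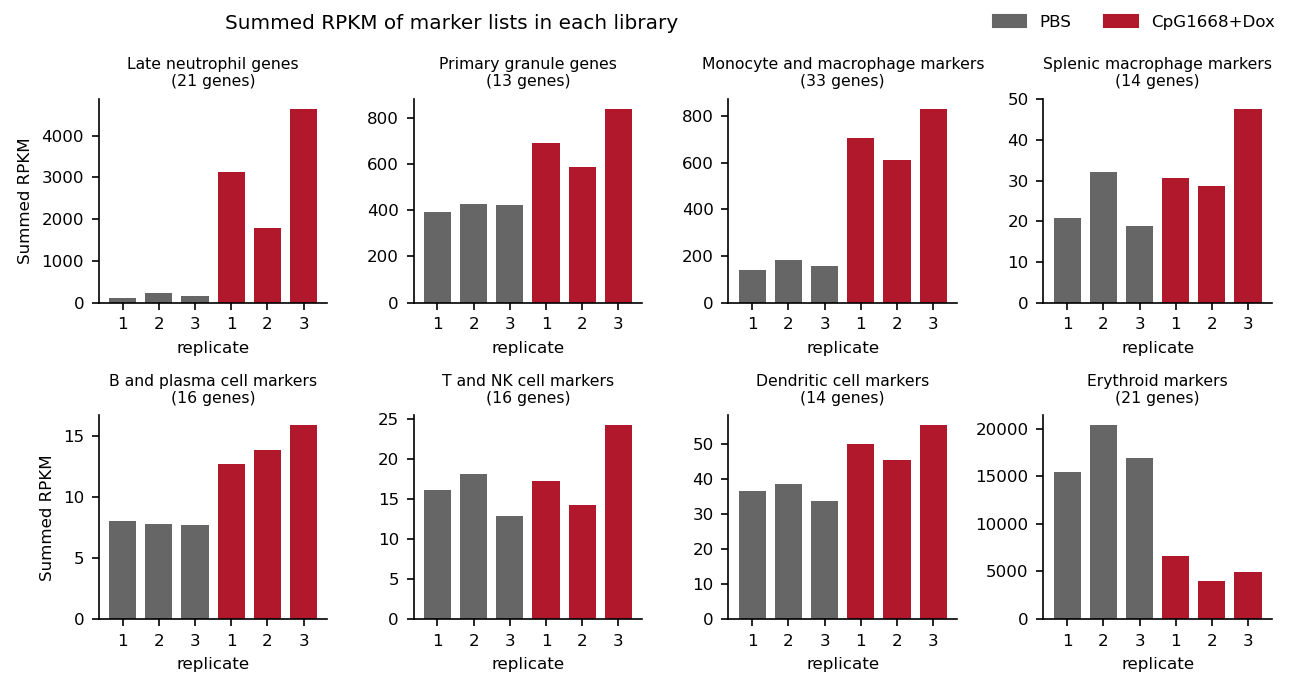
Summed RPKM of 8 marker lists in each of the 6 libraries, on linear axes from 0, with PBS replicates in grey and those labelled CpG1668+Dox in red. Neutrophil, granule and monocyte sums are higher in every treated library, with replicate 3 highest and replicate 2 lowest, erythroid sums are lower, and the splenic macrophage and T and NK sums overlap.

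The libraries labelled CpG1668+Dox were also set against the single treatments, in 1 model of the 12 libraries that tested 12167 genes. Against CpG1668 alone, 373 genes (3.07%) were called higher and 24 (0.197%) lower in those labelled CpG1668+Dox. Against Dox alone, 342 (2.81%) were called higher and 81 (0.666%) lower. These contrasts share the CpG1668+Dox libraries with the comparison against PBS. Counts without single libraries were smaller in most cases. The count above CpG1668 was 126, 147 and 226 without CpG1668 1, 2 and 3 and 136 and 115 without CpG1668+Dox 1 and 3, and the count below it was 9, 3 and 39 without CpG1668 1, 2 and 3 and 10 and 8 without CpG1668+Dox 1 and 3. The count above Dox was 212 and 220 without CpG1668+Dox 1 and 3, and the count below it was 53 and 51 without Dox 2 and 3 and 37 without CpG1668+Dox 1.

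Of the 917 genes called higher against PBS, 826 had both single treatments between PBS and CpG1668+Dox by their means, and 217 were called above both single treatments. Among the 124 of these with at least a 2-fold ratio and 5 RPKM, 124 lay in that order and 70 were called above both. These genes were picked for CpG1668+Dox above PBS, and that choice by itself favours this order. The counts are therefore descriptions and cannot show how the 2 agents act together. Of 19 late neutrophil genes, 17 were called above CpG1668 and 1 above Dox. S100a9 had 284, 289 and 379.7 RPKM in CpG1668 and 254, 577 and 1021 in Dox, and was called above CpG1668 (2.01, adjusted p = 0.0394) but not above Dox (1.26, adjusted p = 0.231). Of 12 primary granule genes, 3 were called above CpG1668 and 7 above Dox. Mpo had 52.9, 43.2 and 47.2 in CpG1668 and 13.2, 14.5 and 24.5 in Dox, and was called above Dox (2.24, adjusted p = 5.1e-04) and not above CpG1668 (0.79, adjusted p = 0.129). The difference between the 2 lists in these counts was not tested.

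Monocyte genes stood above both single treatments, with 25 of 29 called above CpG1668 and 26 of 29 above Dox. F13a1 had 5.6, 5.57 and 5.53 RPKM in CpG1668 and 2.65, 3.21 and 3.1 in Dox, and the double treatment exceeded CpG1668 (0.91, adjusted p = 0.00171) and Dox (1.64, adjusted p = 1.2e-05). Lyz2 had 93.2, 96 and 114 and 78.1, 143 and 142, and exceeded both (1.48, adjusted p = 0.0127 against CpG1668 and 1.28, adjusted p = 0.0203 against Dox). Irf8 had 1.6, 1.67 and 1.56 and 1.09, 1.21 and 1.2, and exceeded both (0.57, adjusted p = 0.00956 and 0.84, adjusted p = 5.6e-04). Klf4 had 2.3, 1.94 and 2.27 and 1.41, 1.64 and 1.38 (0.83, adjusted p = 0.0010 and 1.19, adjusted p = 1.2e-05). Erythroid markers had 0 of 21 called below CpG1668 and 1 of 21 below Dox. Alas2 had 23.1, 37.9 and 43.5 in CpG1668 and 29.9, 7.87 and 14 in Dox, and was not called against either (-1.12, adjusted p = 0.203 and -0.0098, adjusted p = 0.997). Of the 619 genes called lower against PBS, 20 were called below CpG1668, 46 below Dox and 3 below both.

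The motifs spelled out above, and one for C/EBP, were counted in 10255 promoters of 8099 tested genes in RefSeq GRCm38.p6, over the 250 bases before each start and on both strands. The letters for PU.1 were found in 34.5% of 264 promoters of genes called at least 2-fold higher, 24.6% of those of all tested genes and 12.8% of 39 promoters of genes called at least 2-fold lower. TTGCNNAA (C/EBP) was in 13.3%, 7.47% and 10.3%. In the same order, the letters for STAT were in 8.71%, 5.69% and 5.13%, and those of the interferon response in 7.2%, 2.69% and 12.8%. The letters for GATA were in 9.47%, 5.99% and 20.5%. Among genes called at least 2-fold lower, 5 promoters held the interferon response letters and 8 the GATA letters. For all genes called higher (843 promoters) and all called lower (598 promoters), the shares were 26.6% and 16.4% for PU.1, 10.1% and 7.19% for C/EBP, 7.83% and 5.85% for STAT, 4.39% and 2.51% for interferon response and 7.24% and 9.87% for GATA. Over all 32851 promoters in the table the shares were 19.7% for PU.1, 9.56% for C/EBP, 7.02% for STAT, 2.98% for interferon response and 9.99% for GATA. These shares are descriptions without a test, promoters of 1 gene can overlap, and a match shows letters and not binding.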

How the data were processed

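RPKM values were measured in 12 libraries of sorted leukaemia cells, of which 6 enter the main comparison. The authors deposited RPKM per gene symbol; per the submitters' processing notes STAR 2.7.9, Partek 7.18.0723 and build mm10 were used, without the step of each. Sources used here do not give the annotation, filters or counting. Reads shared between gene copies can move their values.

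Genes averaging 1 RPKM or more in the 6 libraries entered a limma 3.58.1 fit (R 4.3.3) of log2(RPKM + 1) (4 residual degrees of freedom, intensity trend, Benjamini-Hochberg adjustment over 12206 genes, called at an adjusted p under 0.05). Contrasts with the single treatments used 1 model of 12 libraries (8 residual degrees of freedom). Depth was estimated from the step that 1 read makes in RPKM: 73.5% to 74.1% of the genes were within 0.05 of whole reads. Limits by depth cover counting error only. Tested on simulated data of 11845 genes, the CpG1668+Dox against PBS fit recovered 54% of 1.25-fold, 94% of 1.5-fold, 92% of 2-fold and 100% of 4-fold changes, with 4 false calls among 174. Changes were set only in genes above a floor in PBS, below which Irf8, Klf4, F13a1 and Ptprc lie. Noise was drawn independently for each gene and library, so shifts that genes of 1 library share were not simulated.

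The comparison, the 47 gene lists and the genes were chosen with earlier results of these data known. Named genes were Stat3, Irf8, Tlr9, Cbfb and Ptprc, the 14 largest rises and falls among called genes of at least 5 RPKM without overlap, up to 4 members per list by moderated t, and members of counts of 5 or fewer. Other genes were chosen after their values were seen. Positions are from GENCODE M21 (GRCm38), which held 32391 of 33531 symbols. Alternatives covered the pseudocount, filter, scaling, trend, libraries fitted, the replicate block and each library left out; a covariate of late neutrophil genes was added after the data were seen.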

Additional observations from a re-analysis of the deposited data

How the results depend on the processing

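Depth limits genes under about 0.1 RPKM, near 3 reads per kb. Counts of genes called higher and lower in CpG1668+Dox against PBS (917 and 619) were 923 and 624 with a pseudocount of 0.1, 1200 and 421 without a filter, 508 and 470 at a mean of at least 5 RPKM, 923 and 683 with median-of-ratios scaling, 857 and 1045 with quantile normalization, 884 and 574 without the trend and 1111 and 779 with all 12 libraries in the fit. Leaving out each library gave 548 to 705 higher and 321 to 412 lower. Against CpG1668 (373 and 24), the counts were 169 and 16 at 5 RPKM, 307 and 66 with quantile normalization, and 115 to 425 and 3 to 39 without single libraries. Against Dox (342 and 81), they were 574 higher without a filter, 130 and 50 at 5 RPKM, 208 and 33 with only the 6 libraries of the contrast, and 212 to 358 and 37 to 63 without single libraries. Fewer genes tested or fewer samples go with the stricter filter and the left-out libraries; the cause of the other shifts was not tested. The replicate number used as a block gave 643 and 362 against PBS, 290 and 14 against CpG1668 and 293 and 54 against Dox. Same-numbered libraries did not deviate together (correlations of 0.033, -0.14 and 0.025), and pairs with different numbers ran from -0.127 to 0.107. With 3 libraries per group this cannot settle whether a number marks a shared batch.

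Over the 12 libraries, a covariate of the mean late neutrophil level, chosen after seeing the data, gave these results: 6 genes were called higher and 0 lower (with the covariate differing between the groups), 125 named genes called in the main fit kept their direction but lost the call, 30 kept their direction and stayed called or not called as before, and 27 changed sign in log2 change, to Anxa1 -0.069, C1qa -0.45, C1qb -0.29, C1qc -0.40, Camp -0.0027, Cbfb -0.047, Ccnb1 0.28, Cd5l -0.12, Cpa3 -0.21, Fcer1g -0.022, Gzmb -0.64, Hlf 0.018, Hspe1 0.099, Icam1 -0.027, Ifitm6 -0.69, Kdm5b 0.025, Kdr 0.24, Kmt2d -0.035, Lcn2 -0.18, Ltf -0.13, Nkg7 -0.80, Psmb7 0.16, Retnlg -0.26, S100a8 -0.39, S100a9 -0.11, Sdc1 0.32 and Tnfsf14 -0.066. Camp, Ifitm6, Lcn2, Ltf, Retnlg, S100a8 and S100a9 are among the 19 genes whose mean is the covariate, so their values under it, like those of the other members, are set by its construction. Without the filter 31054 genes were tested and 20 named genes lost their call, and the cause of these losses was not tested. Quantile normalization changed the sign of mt-Nd4 to 0.040. Without CpG1668+Dox replicate 3, Nkg7 went to -0.026 and Siglecf to 0.0058, within -0.026 to 0.38 and -0.048 to 0.0058 over the 6 libraries left out in turn. The genes that changed sign under the last 2 settings were not called.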
